A study of Mus musculus with 5 samples.

Results

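The mouse mitochondrial genome encodes 37 genes, and all of them were present among the 53700 gene IDs of the count table. They were chosen by name, as every gene whose symbol begins with mt-, and comprise 13 mRNAs, 2 rRNAs and 22 tRNAs. The RNA came from BAC-TRAP, a method in which an EGFP-tagged ribosomal protein (L10a) is switched on by Cre recombinase and the tagged ribosomes are pulled down from tissue lysate together with bound RNA. All mice were C57BL/6, carried the Cre-dependent L10a tag and received AAV:THCre in the midbrain, so that Cre was driven by a promoter of tyrosine hydroxylase, an enzyme that marks DAergic neurons. The genotypes compared were L10a;Esrrg WT (3 libraries, WT-2, WT-3 and WT-4) and L10a;Esrrg Flox (2 libraries, Flox-2 and Flox-4), where Cre also removes exon 2 of Esrrg, the gene of the nuclear receptor ERRγ. Mice were 4 months old and tissue was taken 1 month after deletion. Each library came from a pool of animals, so p-values measure the spread between pools, and variation among single animals was averaged within them.

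Mitochondrial DNA is transcribed from both strands into long precursors, which are cut mostly at the tRNAs that lie between the rRNAs and mRNAs. The mRNAs encode core subunits of respiratory complexes I, III and IV and of the ATP synthase (complex V), and are translated inside the organelle on ribosomes built from the 2 mitochondrial rRNAs. Those ribosomes do not contain L10a, the protein that carried the tag. Libraries were made from poly(A)-selected RNA. Most mitochondrial mRNAs and the rRNAs carry short poly(A) tails, whereas mature tRNAs do not and mt-Nd6 largely lacks one. The mRNA mt-Nd6 and 8 tRNAs are annotated on the light strand, and all other members on the heavy strand.

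Fragments of the mitochondrial genome have also been copied into nuclear chromosomes, and a read that matches both places equally well was not credited to either gene. The sequences below show why this matters for some members only. Each pair gives 90 bases of a mitochondrial mRNA and the aligned stretch of its nuclear copy, from GENCODE M21 transcripts of genome build GRCm38, with capitals at the bases that differ. The last line is the whole of mt-Tp, the proline tRNA.
mt-Co2: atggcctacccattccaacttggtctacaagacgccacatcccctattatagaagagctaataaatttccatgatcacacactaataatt
Gm28661: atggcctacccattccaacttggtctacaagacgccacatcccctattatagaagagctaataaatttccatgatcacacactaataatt
mt-Nd3: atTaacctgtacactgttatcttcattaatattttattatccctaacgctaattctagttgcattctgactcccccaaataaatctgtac
Gm28438: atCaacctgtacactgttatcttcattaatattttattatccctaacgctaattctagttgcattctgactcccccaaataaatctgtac
mt-Cytb: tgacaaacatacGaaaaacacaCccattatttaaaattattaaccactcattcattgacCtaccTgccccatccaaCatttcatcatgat
Gm11410: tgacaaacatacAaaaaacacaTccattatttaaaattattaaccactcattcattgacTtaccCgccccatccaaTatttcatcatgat
mt-Co1: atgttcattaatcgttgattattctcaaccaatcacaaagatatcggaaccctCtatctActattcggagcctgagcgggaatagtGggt
Gm13340: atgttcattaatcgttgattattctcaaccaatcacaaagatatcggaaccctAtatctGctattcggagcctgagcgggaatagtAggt
mt-Tp: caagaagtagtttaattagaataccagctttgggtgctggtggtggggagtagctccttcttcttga
In these stretches mt-Co2 did not differ from Gm28661 and mt-Nd3 differed from Gm28438 by 1 base, whereas mt-Cytb differed from Gm11410 by 5 bases and mt-Co1 from Gm13340 by 3.

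Over whole transcripts the same contrast held. Among annotated transcripts, mt-Co2 (cytochrome c oxidase subunit 2) matched Gm28661 on chromosome 1 at 100% identity over 681 of 684 bases. The mRNAs of ATP synthase subunit 6 (mt-Atp6), cytochrome c oxidase subunit 3 (mt-Co3), and complex I subunits 3 and 4L (mt-Nd3 and mt-Nd4l) each had such a copy on chromosome 1, namely Gm10925, Gm28437, Gm28438 and Gm10222. Their identity was 100% in 3 cases and 99.7% for mt-Nd3, which had 1 mismatch over 345 of 348 bases. The mRNA of complex I subunit 4, mt-Nd4, was matched without mismatch by Gm28439 over 876 of 1378 bases. By contrast the copy of mt-Cytb (cytochrome b of complex III) on chromosome 4 was 92.9% identical with 81 mismatches, and the full-length copy of mt-Co1 (cytochrome c oxidase subunit 1) on chromosome 2 was 97.6% identical with 37 mismatches. A partial copy of mt-Co1 on chromosome 1, Gm29216, was closer, with 1 mismatch over 483 of 1545 bases.

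At the length of a single read, every 150-base window of each transcript was looked up in all other annotated transcripts on either strand. Between 97.0% and 99.8% of the windows of mt-Co2, mt-Atp6, mt-Co3, mt-Nd3 and mt-Nd4l had an exact copy elsewhere, against 59.2% for mt-Nd4 and 23.6% for mt-Co1. None had one in the rRNAs or in mt-Nd1, mt-Nd2, mt-Nd5, mt-Nd6, mt-Cytb and mt-Atp8. Copies outside annotated transcripts were not searched, so these are lower limits for single windows. Reads were sequenced in pairs, and the share of pairs that could not be placed was not measured.

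The 13 mRNAs fell into separate count ranges along this line. Of these, 6 had at most 15 reads in any library, and the other 7 had at least 222 in every library. Copied windows made up over 90% of 5 of the 6 low mRNAs, and 5 of the 7 others had no copied window. The exception among the low mRNAs was mt-Atp8 (ATP synthase subunit 8), which was at 0 in all 5 libraries although no 150-base window of it was copied. At 204 bases mt-Atp8 is the shortest of the mRNAs, and it shares 43 bases with mt-Atp6. The low mRNAs were neighbours on the genome, lying within the 9 consecutive genes from mt-Co2 to mt-Nd4l.

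**Figure D1:**
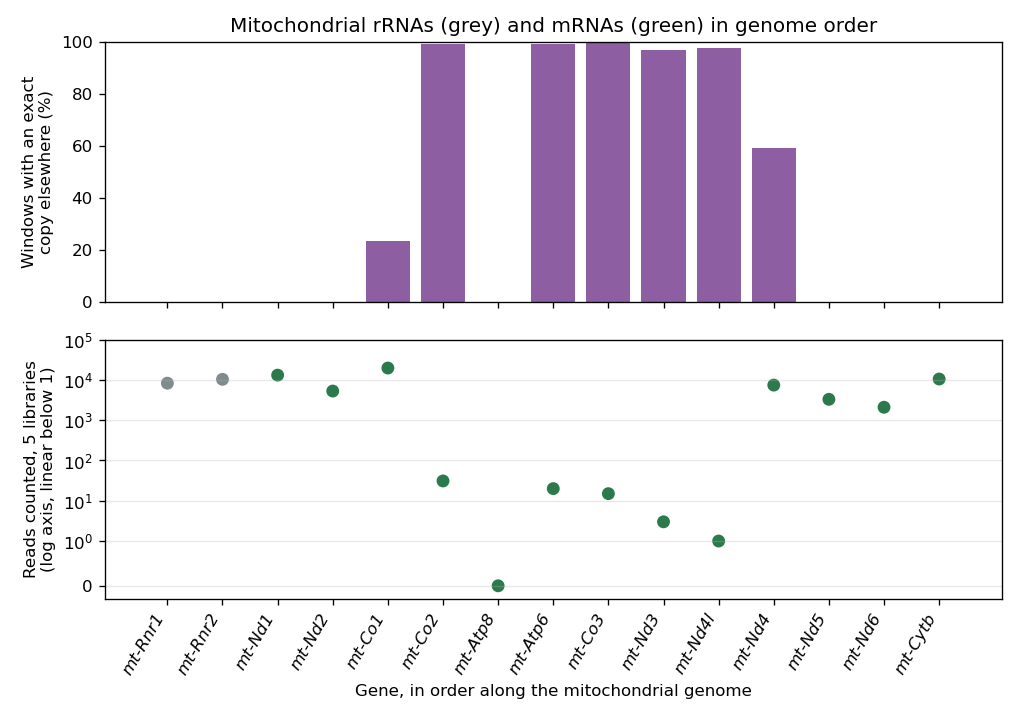
For the 15 mitochondrial rRNAs (grey) and mRNAs (green) in genome order, the upper panel shows the percentage of 150-base windows with an exact copy in another annotated transcript and the lower panel the reads counted over all 5 libraries (log axis, linear below 1). The run from mt-Co2 to mt-Nd4l combines high copied percentages with few reads, except for mt-Atp8, which has no copied window and no reads.

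A member was taken as measurable where 2 or more libraries held at least 10 counts of it, and 11 of the 37 met this minimum. They were 8 of 13 mRNAs (mt-Nd1, mt-Nd2, mt-Co1, mt-Co2, mt-Nd4, mt-Nd5, mt-Nd6 and mt-Cytb), both rRNAs and 1 of 22 tRNAs (mt-Tp). The remaining 26 members were too low to judge. Among them were the mRNAs mt-Atp6 (0 to 14 counts per library), mt-Co3 (0 to 10), mt-Nd3 (0 to 1), mt-Nd4l (0 to 1) and mt-Atp8 (0). Of the 21 tRNAs that could not be judged, mt-Tf, mt-Tn and mt-Tc (phenylalanine, asparagine and cysteine) had a single read each in the whole series and 18 had none. At this depth a count of 0 allows up to 0.130 to 0.145 counted reads per 1000000 assigned counts (CPM), the value of 3 counts. Since reads that match a copy equally well are not in these counts, the low counts of the copied mRNAs do not measure how much of their RNA was present. The low counts of the tRNAs do not measure it either. Mature tRNAs lack the poly(A) tail used for selection, and reads that also overlap a neighbouring gene are not counted.

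Mitochondrial mRNAs took a small part of the assigned counts. Reads that match a nuclear copy equally well are not among these, so the shares do not measure the part of all sequenced RNA. Reads aligned to more than 1 place made up 3.60% to 3.72% in WT and 4.10% and 4.23% in Flox-2 and Flox-4. Their mitochondrial part was not measured. Summed counts of the mitochondrial mRNAs were 0.0387%, 0.0342% and 0.0408% of all counts assigned to genes in WT-2, WT-3 and WT-4, and 0.0482% and 0.113% in Flox-2 and Flox-4. The rRNAs contributed 0.00849%, 0.00897% and 0.00827% in the same WT libraries, and 0.0119% and 0.0452% in the Flox libraries. Counting error was small beside these differences, since the 95% Wilson interval of the mRNA share ran from 0.0378% to 0.0395% in WT-2 and from 0.112% to 0.114% in Flox-4. The tRNAs held only 15 to 61 counts per library.

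Both shares were therefore higher in each Flox library than in every WT library, but by very different amounts. The mRNA share averaged 0.0379% ± 0.0034 over the 3 WT libraries and 0.0806% ± 0.0458 over the 2 Flox libraries (means ± SD). Relative to the WT mean it was 1.27 times as high in Flox-2 and 2.98 times in Flox-4. For the rRNA share the same ratios were 1.38 and 5.27. Within mitochondrial counts, rRNAs made up 16.8% to 20.8% in WT, 19.7% in Flox-2 and 28.5% in Flox-4, so the shift in class makeup outside the WT range was present in Flox-4 and not in Flox-2. The log2 mRNA share, averaged within each group, was higher in Flox by 0.97, by 0.35 without Flox-4 and by 1.58 without Flox-2. In pulldowns from tissue, more cells or organelles in a sample and more of an RNA per cell cannot be told apart.

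Levels of different members were compared per length, as CPM per kb of transcript in the WT libraries. The highest was mt-Co1 with 96.4, 81.9 and 99.7 CPM per kb in WT-2, WT-3 and WT-4 (92.7 ± 9.5, SD, n = 3), followed by mt-Nd1, complex I subunit 1, with 79.6 ± 6.80. WT-4 had the highest level of both, and the ranges of mt-Co1 (81.9 to 99.7) and mt-Nd1 (71.8 to 84.0) overlapped. Then came mt-Cytb at 49.8 ± 5.50, clear of its neighbours on either side, followed by the small rRNA mt-Rnr1 at 37.9 ± 2.88 and the large rRNA mt-Rnr2 at 31.3 ± 1.5. The ranges of the rRNAs did not overlap (34.6 to 39.6 against 29.8 to 32.8). Below them mt-Nd2 (29.0 ± 1.96), mt-Nd4 (26.7 ± 2.62) and mt-Nd6 (23.6 ± 3.07) formed a group of complex I mRNAs in which each overlapped the next, and mt-Nd2 also overlapped mt-Rnr2. Next came mt-Tp (13.8 ± 3.03) and mt-Nd5 (12.6 ± 1.13), which overlapped each other, and mt-Co2 was far below them at 0.112 ± 0.036.

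This order depends on the mapping of reads, which differs between members. Dividing the same counts by only those windows that had no copy, the WT mean of mt-Nd4 was 73.3 CPM per 1000 windows instead of 29.9 over all windows, and that of mt-Co1 was 134 instead of 103. The WT level of mt-Co2 has no such correction, since nearly all of it was copied. The tRNA mt-Tp is shorter than a read, and reads of longer precursors that pass through it can be counted for it. In these unstranded libraries mt-Tp, mt-Nd6 and the light-strand tRNAs cannot be told apart from antisense RNA of the same region, and mt-Nd6 shares 14 bases with mt-Nd5 on the other strand.

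The comparison of Flox with WT asked whether loss of Esrrg from DAergic neurons was accompanied by a different level of each mitochondrial transcript. Values below are normalized counts (counts divided by the DESeq2 size factor of the library), and adjusted p-values are Benjamini-Hochberg values over 15724 genes. Of the 11 measurable members 1 passed an adjusted p of 0.05 as higher in Flox, mt-Nd5, and none passed as lower (0 with a DESeq2 unadjusted p under 0.05 in that direction). Over all genes with an adjusted p, 4.20% passed as higher and 4.05% as lower. One of the 11, mt-Co2, met the minimum of counts only through the Flox libraries, which fixed its direction, so it is left out of the next counts. The other 10 all had a DESeq2 unadjusted p under 0.05 in the higher direction, against 9.41% of 16711 genes with the same minimum of counts. This number was 6 without WT-2, 4 without WT-3, 7 without WT-4, 8 without Flox-4 and 10 without Flox-2. In all 10 both Flox libraries lay above all WT libraries, against 19.9% of those genes. The members are cut from shared precursors and were read from the same libraries, so they are not independent of each other.

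The member that passed, mt-Nd5 (complex I subunit 5, the longest of the mRNAs), had 481.5, 461.6 and 562.1 normalized counts in WT-2, WT-3 and WT-4 and 701.3 and 1058.7 in Flox-2 and Flox-4. Flox-4 was the highest library and Flox-2 lay between it and the WT libraries. The mean ± SD was 502 ± 53.2 for WT (n = 3) and 880.0 ± 253 for Flox (n = 2), a log2 fold change of 0.81 (SE 0.19, DESeq2 adjusted p = 9.4e-04). It stood at 0.48 (DESeq2 adjusted p = 0.429) without Flox-4 and at 1.08 (4.6e-06) without Flox-2. In edgeR its adjusted p was 0.0504. The copies of mt-Nd5 nearest in sequence, Gm11407 and Gm4076, were 92.3% and 95.2% identical over 1058 and 954 bases, and no 150-base window was shared.

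The other measurable complex I mRNAs had larger fold changes than mt-Nd5 and did not pass, and their Flox libraries lay farther apart. For mt-Nd1 the normalized counts were 1728, 1478 and 1785 in WT-2, WT-3 and WT-4 and 2157 and 5901 in Flox-2 and Flox-4. The log2 fold change was 1.28 (SE 0.51, DESeq2 adjusted p = 0.103). The pattern of a modestly higher Flox-2 and a far higher Flox-4 recurred in each of the others. Counts of mt-Nd2 (complex I subunit 2) were 607.9, 655.3 and 710.0 in WT and 851.1 and 2424 in Flox, with a log2 fold change of 1.32 (SE 0.55, DESeq2 adjusted p = 0.121). Those of mt-Nd4 were 793.3, 717.4 and 900.3 in WT and 1153 and 3801 in Flox (1.62, SE 0.62, DESeq2 adjusted p = 0.0817), the largest fold change among mRNAs with at least 222 reads in every library. The light-strand mRNA mt-Nd6 (complex I subunit 6) had 297.1, 226.2 and 278.6 in WT and 384.3 and 892.7 in Flox (1.26, SE 0.47, DESeq2 adjusted p = 0.0723). Its fold change lay among those of the heavy-strand complex I mRNAs.

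In complex III, mt-Cytb is the single mitochondrially encoded subunit. It had 1254, 1082 and 1395 normalized counts in WT-2, WT-3 and WT-4, and 1614 and 5088 in Flox-2 and Flox-4 (1.43, SE 0.57, DESeq2 adjusted p = 0.104). Flox-2 lay just above WT-4 and Flox-4 far above both. In complex IV, mt-Co1 encodes the catalytic subunit and was the member with the most reads. Its normalized counts were 3240, 2721 and 3420 in WT and 3713 and 6471 in Flox, and its log2 fold change of 0.70 was the smallest of the 11 (SE 0.32, DESeq2 adjusted p = 0.166). Scaled by total assigned counts it passed (0.66, DESeq2 adjusted p = 0.0061).

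The second complex IV mRNA, mt-Co2, had 1, 2 and 2 reads in the WT libraries and 11 and 15 in the Flox libraries. It met the minimum only through the Flox libraries, so no ratio or test is given for it, and DESeq2 gave it no adjusted p. No mRNA of complex V could be judged.

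The rRNAs had the largest fold changes of the measurable members other than mt-Co2. Normalized counts of mt-Rnr1 were 821.8, 814.2 and 734.0 in WT-2, WT-3 and WT-4 and 1161 and 4702 in Flox-2 and Flox-4 (log2 fold change 1.89, SE 0.70, DESeq2 adjusted p = 0.0714). The 3 WT libraries were close together, with an SD of 48.6 on a mean of 790.0. Those of mt-Rnr2 were 1025, 1116 and 1101 in WT and 1448 and 5562 in Flox (1.70, SE 0.68, DESeq2 adjusted p = 0.102). The only measurable tRNA, mt-Tp, had 24.2, 15.3 and 21.1 in WT and 29.8 and 60.6 in Flox (1.16, SE 0.51, DESeq2 adjusted p = 0.159), from 15 to 61 reads per library.

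**Figure D2:**
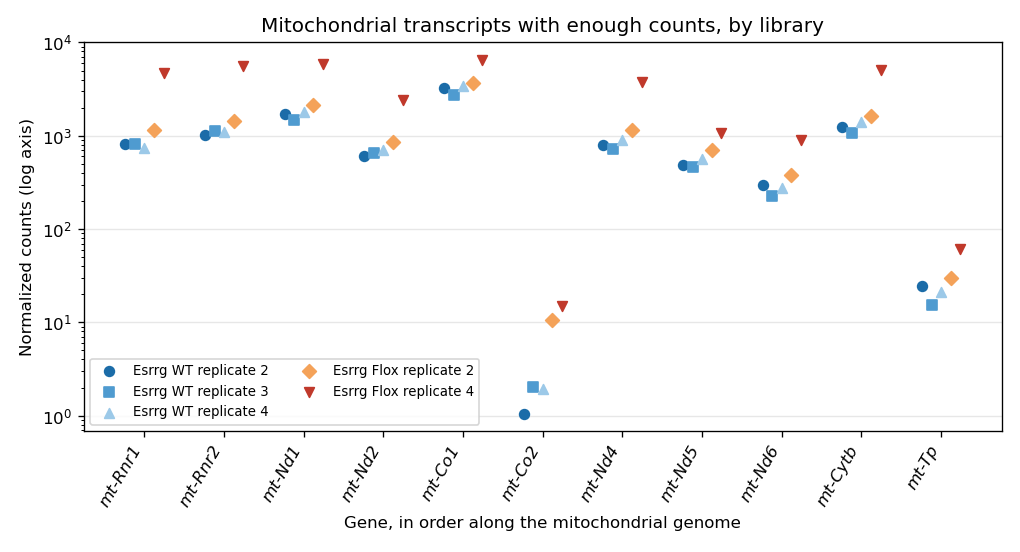
Normalized counts (log axis) of the 11 measurable mitochondrial transcripts in genome order, with 1 point per library for 3 Esrrg WT (blue) and 2 Esrrg Flox libraries (orange and red). Both Flox points lie above all WT points for each gene (for mt-Co2 this follows from the minimum of counts), and Flox-4 lies above Flox-2, while mt-Co2 sits far under the other mRNAs.

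The median log2 fold change was 1.28 over the 7 measurable mRNAs other than mt-Co2 and 1.30 with it, beside -0.0022 over all 16711 genes with the same minimum. Over the 7 it was 0.37 without Flox-4 and 1.83 without Flox-2. The number of members that passed moved with the Flox libraries too. Without Flox-4 none passed in DESeq2, with 8 of the 11 at an unadjusted p under 0.05, and without Flox-2 there were 9. Each of these fits has a single Flox library, which was assumed to vary like the WT libraries. Leaving out any 1 WT library left 1 passing.

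How far the Flox libraries differed from each other varied among members. Among the 10 measurable members other than mt-Co2, the ratio of Flox-2 to the WT mean ran from 1.19 (mt-Co1) to 1.47 (mt-Tp), a narrow range. The ratio of Flox-4 ran from 2.07 (mt-Co1) to 5.95 (mt-Rnr1). Flox-4 was 4.05 and 3.84 times as high as Flox-2 for mt-Rnr1 and mt-Rnr2. Among the mRNAs it was 3.30 times as high for mt-Nd4 and 3.15 for mt-Cytb, but 1.74 for mt-Co1 and 1.51 for mt-Nd5. Of these 10 members, the one that passed was the one whose Flox libraries were most alike.

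**Figure D3:**
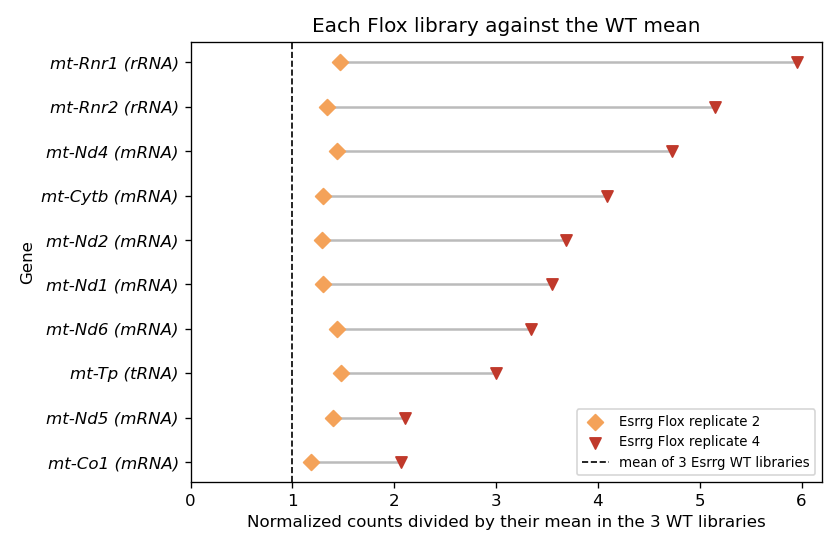
Normalized counts of each Flox library divided by the mean of the 3 WT libraries (dashed line at 1) for the 10 measurable members other than mt-Co2, sorted by Flox-4. Flox-2 lies between 1.19 and 1.47 for all 10, whereas Flox-4 spreads from 2.07 to 5.95 with the rRNAs at the top.

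Most subunits of the same complexes are encoded in the nucleus and made on cytosolic ribosomes, where the tag is. Of 73 such subunit genes of complexes I, III, IV and V, 9 passed as higher in Flox and 6 as lower, with a median log2 fold change of 0.18. The shares among all genes with an adjusted p were 4.20% higher and 4.05% lower. In complex I, 6 of 37 passed as higher, among them Ndufa11 (0.43), Ndufa2 (0.43), Ndufb3 (0.42), Ndufb1-ps (0.41) and Ndufs5 (0.38), all accessory subunits. Ndufa9 (-0.42), an accessory subunit next to the ubiquinone site, passed as lower. In complex III, Uqcrh (0.42) passed as higher, and Uqcrc2 (-0.58), Cyc1 (-0.55) and Uqcrc1 (-0.27) as lower, of 9. In complex V, Atp5l (0.56) and Atp5o (0.35) passed as higher and Atp5b (-0.51) and Atp5g1 (-0.32) as lower, of 16. None of 11 complex IV genes passed, with 4 at an unadjusted DESeq2 p under 0.05. All of these differences were under 1.5-fold, and the counts rest on single libraries. In DESeq2 the 9 higher calls became 0 without WT-2 (12 at an unadjusted p under 0.05), 2 without WT-3, 17 without WT-4, 24 without Flox-2 and 0 without Flox-4 (4 at an unadjusted p under 0.05). The 6 lower calls became 2 without WT-2, 3 without WT-4, 3 without Flox-2 and 0 without Flox-4 (6 at an unadjusted p under 0.05). In edgeR none passed in either direction, with 26 higher and 8 lower at an unadjusted p under 0.05.

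Transcription and RNA processing in the organelle depend on nuclear genes as well. Of 40 listed, 37 had counts. Among these 1 passed as lower and none as higher, beside 4.05% and 4.20% of all genes with an adjusted p. Their median log2 fold change was -0.09, with 6 at an unadjusted DESeq2 p under 0.05. Both Flox libraries lay below all WT libraries in 15 of the 37 and above them in 3. Over the 16711 genes with the minimum of counts these numbers were 3620 and 3331. The one that passed was Supv3l1, a helicase of mitochondrial RNA decay, with 330.8, 319.0 and 328.6 normalized counts in WT-2, WT-3 and WT-4 and 244.0 and 205.8 in Flox-2 and Flox-4 (-0.54, SE 0.18, DESeq2 adjusted p = 0.0370). It did not pass without WT-2, WT-3, WT-4 or Flox-4, each left out in turn.

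The central factors of this list did not pass. Tfam, which packages mitochondrial DNA and starts its transcription, had 1299, 1284 and 1387 normalized counts in WT-2, WT-3 and WT-4 and 1188 and 1262 in Flox-2 and Flox-4 (-0.11, SE 0.11, DESeq2 adjusted p = 0.670). Log2 fold changes were -0.45 for Tfb2m, a transcription initiation factor, and -0.31 for Polrmt, the RNA polymerase of the organelle. They were -0.22 for Polg, the DNA polymerase, -0.12 for Twnk, its helicase, and 0.20 for Lrpprc, which stabilizes mitochondrial mRNAs. Slirp, the partner of Lrpprc, was at 0 in all libraries, and was not assessed.

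Facts of the libraries bear on these values. Assigned counts ran from 20635855 to 23105058 per library, and the labels could be checked only by Esrrg over the whole gene, since deletion removes exon 2. Esrrg had 1763, 1643 and 1726 normalized counts in WT-2, WT-3 and WT-4 and 1504 and 1170 in Flox-2 and Flox-4 (-0.35, SE 0.13, DESeq2 adjusted p = 0.0753). The 11 dopaminergic markers were all detected, and their sum differed little between groups, at 0.92 to 1.09 times the WT mean in WT and 0.93 and 0.98 in Flox. One of them, Ret, a receptor for neurotrophic factors of the GDNF family, passed as lower (-0.40), as did 4.05% of all genes with an adjusted p.

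Other groups of genes moved with the mitochondrial transcripts. Of 12 microglial markers 10 passed as higher in Flox, beside 4.20% of all genes with an adjusted p. Summed normalized counts of the 12 were 3009, 3677 and 1886 in WT-2, WT-3 and WT-4 and 6578 and 14703 in Flox-2 and Flox-4. Relative to the WT mean this was 2.30 and 5.15 times in Flox-2 and Flox-4, beside 1.28 and 3.10 for the mitochondrial mRNAs and 1.39 and 5.49 for the rRNAs. Of 8 endothelial markers 3 passed as higher, and their sums were 1.51 and 4.10 times the WT mean. Of 6 nuclear-retained RNAs 1 passed, Neat1 (1.15), and 5 had both Flox libraries above all WT libraries, with sums of 1.40 and 2.30. None of 8 astrocyte or 7 oligodendrocyte markers passed in DESeq2, with 1 and 0 at an unadjusted p under 0.05. In Flox these sums were 0.86 and 1.15 for astrocytes and 0.98 and 1.17 for oligodendrocytes.

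Among the WT libraries the order was different. Microglial markers were highest in WT-3 (1.29 times the WT mean) and lowest in WT-4 (0.66), whereas mitochondrial mRNAs were lowest in WT-3 (0.89) and highest in WT-4 (1.10). The mitochondrial rRNAs varied from 0.98 to 1.03. The part of microglial, endothelial or nuclear RNA in the higher mitochondrial counts of the Flox libraries was not tested.

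**Figure D4:**
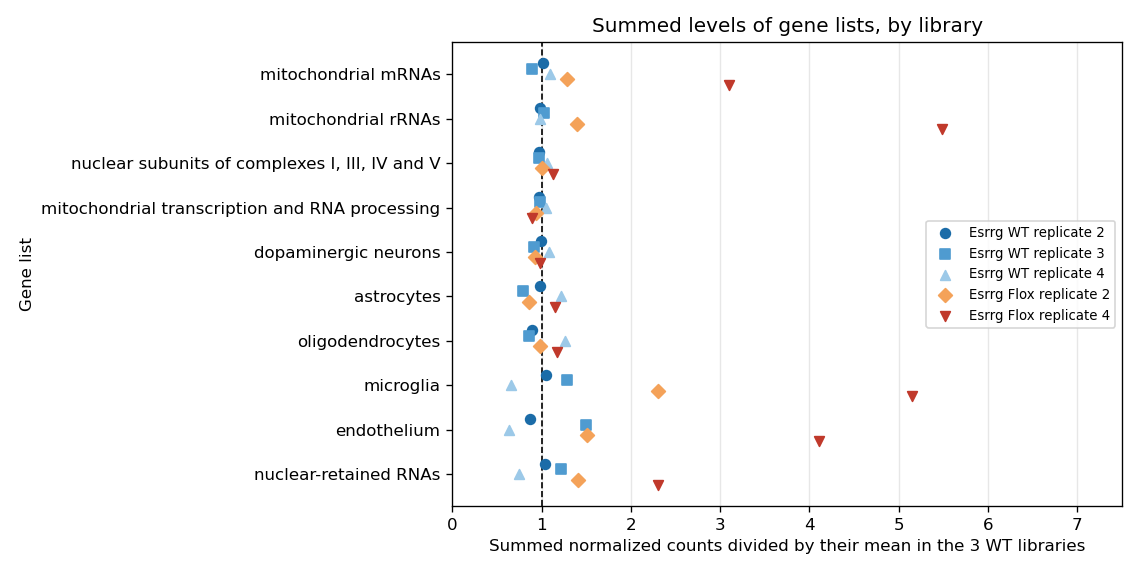
Summed normalized counts of each gene list, divided by their mean in the 3 WT libraries (dashed line at 1), with 1 point per library. Flox-4 stands out for mitochondrial mRNAs (3.10) and rRNAs (5.49), microglia (5.15), endothelium (4.10) and nuclear-retained RNAs (2.30), while nuclear subunits of complexes I, III, IV and V (1.12) and dopaminergic markers (0.98) stay near 1.

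Nuclear copies of the mitochondrial genes were checked as well, since their own RNA could be counted. Of 10 listed copies 8 had a read, with 0 to 18 counts in any library, and none reached the minimum. Their summed normalized counts were 20.02, 14.3 and 21.1 in WT-2, WT-3 and WT-4 and 17.3 and 55.7 in Flox-2 and Flox-4, beside 7209 to 25826 reads of the mitochondrial mRNAs per library. Reads that match a copy and its mitochondrial gene equally well are in neither number. The low counts therefore do not measure how much RNA of the copies was present. The copies with the highest means were Gm29216, Gm10925, Gm28661, Gm28437 and Gm28439, and Flox-4 was the highest library here too.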

How the data were processed

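Libraries were poly(A)-selected and did not keep strand. The authors used Trim Galore for adapters, STAR for alignment and HTSeq-count to assign reads to genes. The deposited values are these raw counts per gene ID and library, not normalized. The submitters' processing notes name Trim Galore 0.6.6, STAR 2.7.9a, HTSeq 0.11.3 and genome build GRCm39, whereas the study's methods name GRCm38 with another GENCODE release, so no coordinates are given. Names, lengths, order, strand and transcript sequences come from GENCODE M21, which matched 52093 of 53700 IDs (97.0%), and 35 of the 37 mitochondrial IDs carried the same version. No column of the table was without a sample. Reads aligned to more than 1 place (3.60% to 4.23% per library) or overlapping more than 1 gene (5.62% to 5.78%) are in no gene's count, and reads outside genes made up 3.18% to 4.45%. Without strand, overlapping and antisense genes cannot be told apart.

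Counts of 29407 genes with a read were analysed with DESeq2 1.42.0 in R 4.3.3 (default size factors, two-sided Wald test, independent filtering at 0.05, Benjamini-Hochberg adjustment), the tool of the study's methods. DESeq2 left 15724 genes with an adjusted p. A member was judged where 2 or more libraries held at least 10 of its counts. All judged members are named, together with chosen regulators and, of each other list, at most 5 genes per direction that passed an adjusted p of 0.05, plus the 5 most abundant nuclear copies. Copies were found by blastn 2.17.0 (E value up to 1e-10) and by exact 150-base windows. Alternatives were edgeR 4.0.16, other size factors, a filter on low counts, a replicate block, a fold threshold of 1.5 and leaving out each library. The scripts were tested on simulated data. Every pair of libraries differed by more than counting noise (chi-square per degree of freedom 4.54 to 50.3). An interval or a limit for 0 counts (3 counts) covers counting error only, since molecules were not tagged. The members and lists were chosen with earlier results of these data known.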

Additional observations from a re-analysis of the deposited data

How the results depend on the processing

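The 11 measurable members kept their higher level in Flox under every alternative run (for mt-Co2 the count minimum fixed the direction), and none of their 121 recomputed values reversed. Of these values 97 stayed on the same side of the threshold of the adjusted p, 13 had no adjusted p (mt-Co2 and, in 3 DESeq2 fits, mt-Tp), 2 lost it (mt-Nd5 in edgeR, and in DESeq2 without Flox-4) and 9 gained it, 8 of them without Flox-2. The number of members that passed as higher, 1 in DESeq2, was 0 in edgeR (10 other than mt-Co2 at an unadjusted p under 0.05). It was 2 with total assigned counts as size factors (mt-Nd5 and mt-Co1), and 1 after leaving out any 1 WT library. None passed as lower under any alternative run, in DESeq2 or edgeR, with 0 at an unadjusted p under 0.05. The number of members other than mt-Co2 at an unadjusted DESeq2 p under 0.05 was 10 of 10 with all libraries. It was 6 without WT-2, 4 without WT-3, 7 without WT-4 and 1 with the replicate block. The median log2 fold change of the 7 mRNAs other than mt-Co2 ran from 0.37 (without Flox-4) to 1.83 (without Flox-2). The difference between groups in mean log2 mRNA share ran from 0.35 to 1.58. It was 1.13 without mt-Co1 and 1.07 over all 37 members.

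Of the nuclear subunit genes, 9 passed as higher and 6 as lower, beside 4.20% and 4.05% of all genes with an adjusted p. Higher calls were 0 in edgeR, 5 with the replicate block, 0 at a fold of at least 1.5, and 0 to 24 when libraries were left out. Lower calls were 0 in edgeR, 0 at a fold of at least 1.5, and 0 to 4 when libraries were left out. Of the transcription and RNA processing genes 1 passed as lower, and 0 in edgeR (8 at an unadjusted p under 0.05), 0 with the replicate block (0 at an unadjusted p under 0.05), 0 at a fold of at least 1.5, and 0 to 1 when libraries were left out. Total assigned counts as size factors shifted the median of all genes most, to -0.04.

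WT and Flox libraries share the replicate numbers 2 and 4, but nothing in the labels ties equal numbers together. Deviations from the group means correlated at 0.09 for both pairs over genes, under the 0.1 set for pairing. With only 2 Flox libraries their deviations mirror each other, so the pairs are not separate checks. With the replicate block 1 member passed (mt-Nd5), with 1 member at an unadjusted p under 0.05 in DESeq2. The median log2 fold change of the 7 mRNAs other than mt-Co2 was 1.03 in that fit. Counts of mt-Tp were low (15 to 61 reads per library). For mt-Co2 nearly all windows had an exact copy, so its counts do not measure its RNA. What limited the calls of the other members was not tested.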
